A study of Sus scrofa with 35 samples.

Results

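The glutathione system was followed through 10 genes. GCLC and GCLM carry out the first step of glutathione synthesis, and GSR recycles glutathione. The others were the peroxidases GPX1, GPX3 and GPX4, and the transferases GSTP1, GSTO1, MGST1 and MGST3. Member probes were chosen by name: every non-control probe was taken whose gene name in the scanner files was one of these symbols, in any case. This gave 38 of the 60305 probes on the array. All 38 passed the filter on dim probes, and 36 were well above background on all 35 arrays. A GSR probe, O12078, was above it on 34 arrays and a GCLC probe, A_72_P108316, on 32.

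RNA of castrated male pigs came from a muscle of the back, the longissimus dorsi, with 1 array per animal. There were 6 arrays each of Creole TN, Creole HS, F1 TN, Large White TN and Large White HS, and 5 of F1 HS. Creole is a local breed of Guadeloupe, Large White a commercial breed, and F1 their cross. TN stands for thermoneutrality, labelled 24 °C, and HS for heat stress, labelled 30 °C, although the growth protocol gives 5 days at 32 °C. Per the study's methods, TN pigs were slaughtered before the temperature was raised and HS pigs after it, from other pens. The study also reports that the HS pigs ate less under heat. Temperature, feed intake, slaughter day, age and pen therefore cannot be told apart. The pigs of a breed came from a few litters and shared pens, which the labels do not identify. Each array therefore entered the tests as an independent animal. Likeness between pigs of a pen or slaughter day can make the HS minus TN p-values too small. By the study's methods, littermates went to different pens and to both temperatures. Likeness between littermates can thus make p-values between breeds too small, and those of HS minus TN too large.

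Glutathione is a small thiol peptide that keeps the inside of the cell reduced. Its first and rate-limiting step is carried out by glutamate-cysteine ligase, formed by a catalytic subunit (GCLC) and a modifier subunit (GCLM), and glutathione reductase (GSR) restores oxidised glutathione with NADPH. Peroxidases use glutathione to reduce hydrogen peroxide and lipid peroxides, and transferases couple it to reactive compounds. In muscle these enzymes act beside catalase and the peroxiredoxins on peroxides formed by respiration.

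Probes of a gene did not always move together, so the sequences of those that differed are shown, 5′ to 3′ as the array files give them. For GPX1, the first 30 bases of the brightest probe and of a called probe are given, and capitals mark the bases that lie in a run both probes share over their full length.
GPX1 A_72_P623069: AGTGCCCCCTCCTACCCCTGCTGCTTGGCA
GPX1 A_72_P655960: agcagtgcctagAGTGCCCCCTCCTACCCC
That run is 48 of their 60 bases long and starts at the first base of A_72_P623069, so they are no independent readings of the transcript. A_72_P088441 and A_72_P684140, also of GPX1, shared 39.

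For GPX3 and GSTO1, the called probe is given whole and the brightest probe by its first 30 bases.
GPX3 O9216: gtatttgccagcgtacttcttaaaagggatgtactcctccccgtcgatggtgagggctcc
GPX3 A_72_P666610: tgacctggtggcattagactcaccccgtgt
GSTO1 O9147: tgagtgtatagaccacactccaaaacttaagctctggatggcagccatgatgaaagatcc
GSTO1 A_72_P165141: tggggacaggagtcagcaactatgatgtac
O9216 shared no run of 16 or more bases, on either strand, with any other probe on the array.

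For MGST1, the brightest probe is given by its first 30 bases, and a pair of called probes is given whole, with the bases at which they differ in capitals.
MGST1 CUST_488_PI427286967: tgaggtagaaaatgagaaacaagctgttgg
MGST1 A_72_P672779: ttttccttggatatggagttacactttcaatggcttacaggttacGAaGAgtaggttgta
MGST1 A_72_P618926: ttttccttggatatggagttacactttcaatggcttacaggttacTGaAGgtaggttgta
CUST_488_PI427286967 also shared no such run. Over its whole length, 0 of 3 reading frames were free of stop codons as printed, against 3 of 3 on the complementary strand. GSTP1 O8505 had 1 against 3, and the called GPX1 probe A_72_P684140 had 0 against 2. Among the member probes only CUST_488_PI427286967 had 0 against 3, and what this says of its strand was not tested. No probe was mapped to the genome here, so the strand of a probe relative to its transcript and its position in the transcript are not given.

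For GPX4, each probe of a pair held 1 base, in capitals, that the other lacked.
GPX4 O12144: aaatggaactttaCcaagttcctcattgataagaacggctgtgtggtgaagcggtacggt
GPX4 A_72_P589411: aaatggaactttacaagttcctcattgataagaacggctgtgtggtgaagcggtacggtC
Of the 38 probes, 25 shared a run of 16 or more bases with another probe and 13 did not. Identical sequences were found for 2 pairs of members, GPX4 A_72_P646221 with A_72_P232212 and MGST3 A_72_P501040 with O13326, so 38 probes are fewer than 38 separate readings.

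Values are log2 of the quantile-normalised median spot intensity, and changes are HS minus TN on that scale, corrected for breed. A probe was called at an adjusted p below 0.05 in limma, adjusted over all 41517 probes kept. Between 58.4% and 75.9% of the probes on an array were well above background. Before normalisation, the upper quartile of log2 intensity averaged 9.05 on TN and 9.24 on HS arrays. The spike-in controls averaged 14.46 and 14.49. Of all probes tested, 16.0% were called between HS and TN, 7.73% higher and 8.30% lower, with a median change of -0.02. Higher probes were 48.2% of these calls, against 27.2% with arrays scaled to the 75th percentile, 37.5% with the scanner's processed signals so scaled and 86.6% with arrays scaled to the spike-ins, so a direction here is relative to the other probes.

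Of the 38 member probes, 12 were called between HS and TN, 10 higher and 2 lower, which is 31.6% beside 16.0% of all probes. The higher calls were 4 of 6 GPX1 probes and 6 of 8 MGST1 probes. The lower calls were a GPX3 probe, O9216, and a GSTO1 probe, O9147. No probe of GCLC, GCLM, GSR, GPX4, GSTP1 or MGST3 was called. The median change over the 38 probes was 0.12, beside -0.02 over all probes, and 31 of 38 were above 0. Processed signals scaled to the 75th percentile gave 9 calls, 6 higher and 3 lower, and spike-in scaling gave 11, all higher.

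**Figure D1:**
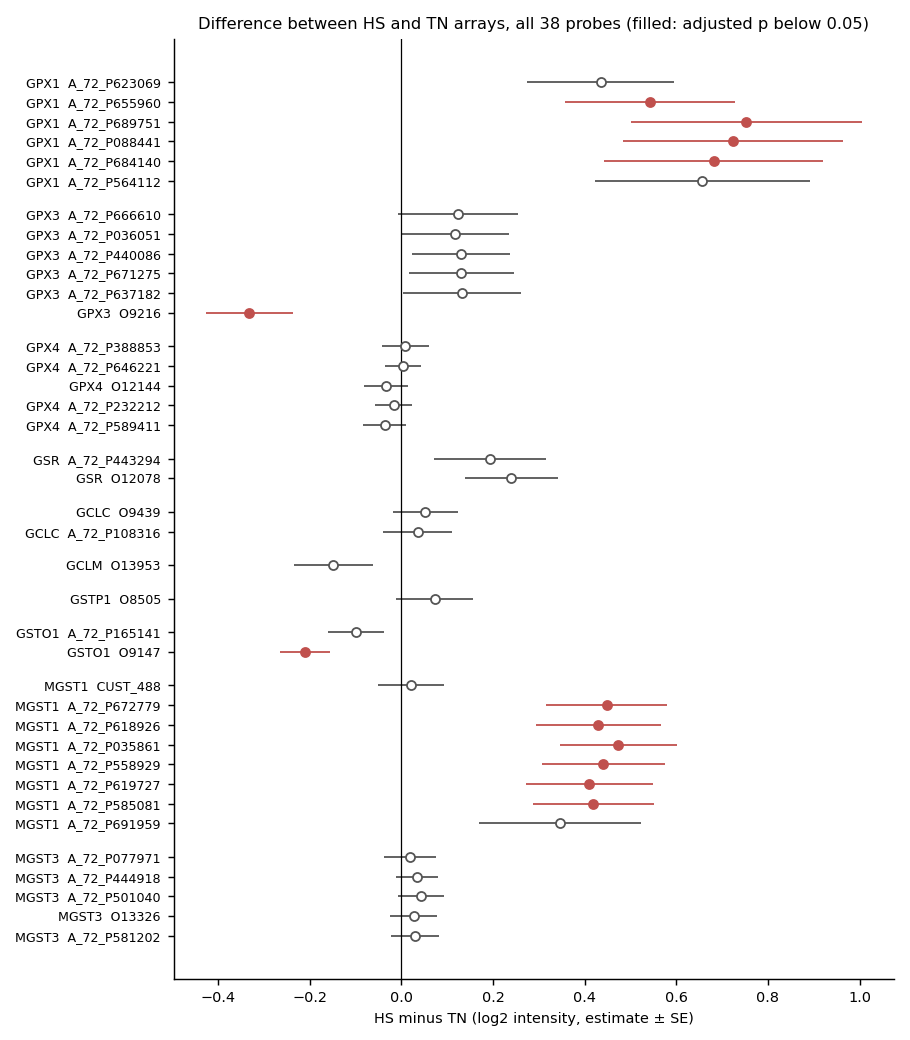
HS minus TN in log2 intensity for each of the 38 probes, estimate ± SE from limma, grouped by gene, with filled red points for adjusted p below 0.05. The GPX1 probes lie between 0.43 and 0.75, 7 of 8 MGST1 probes between 0.35 and 0.47, and the GPX4 and MGST3 probes near 0.

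Taken gene by gene, the call depended on which probe stood for the gene. By the brightest probe of each gene, 0 of 10 genes were called in limma, beside 18.3% of the 9266 genes with a symbol, and the GPX1 probe alone of the brightest had an unadjusted p below 0.05. By the mean of all kept probes of a gene, GPX1 (0.63, SE 0.22, adjusted p = 0.0432) and MGST1 (0.37, SE 0.11, adjusted p = 0.0188) were called. GSTO1 had -0.15 (SE 0.06, adjusted p = 0.0510) by the same mean.

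The first step of glutathione synthesis showed no called change. GCLC probe O9439 read 5.97, 6.17 and 6.62 (lowest, median, highest) on 18 TN arrays and 6.0, 6.21 and 6.82 on 17 HS arrays. The ranges overlapped almost fully, and the change was 0.05 (SE 0.07, 95% interval -0.09 to 0.20, adjusted p = 0.657). The other GCLC probe gave 0.04 (adjusted p = 0.797). GCLM probe O13953 read 7.88, 8.42 and 9.09 on TN and 7.99, 8.18 and 8.63 on HS arrays, so the HS arrays lay within the TN range. Its change was -0.15 (SE 0.09, 95% interval -0.32 to 0.03, adjusted p = 0.241), with 13 of 17 HS arrays below the TN mean of their breed.

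The reductase GSR was read by 2 probes, neither of them called. A_72_P443294 read 6.90, 7.56 and 8.45 on TN and 7.36, 7.60 and 8.68 on HS arrays. The medians were close and the change was 0.19 (SE 0.12, 95% interval -0.05 to 0.44, adjusted p = 0.290). O12078 gave 0.24 (SE 0.10, adjusted p = 0.102). By group means, Large White HS was highest and Creole TN lowest with both probes, 0.44 and 0.48 apart, and no neighbouring groups in that order differed by more than the larger of their SDs.

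GPX1, the widespread peroxidase of cytosol and mitochondria, rose with 4 of its 6 probes. These were 1.46-fold to 1.68-fold higher in HS. A_72_P655960 read 13.87, 14.87 and 15.99 on TN arrays and 14.15, 15.58 and 16.40 on HS arrays. The arrays of both temperatures overlapped widely, yet 14 of 17 HS arrays were above the TN mean of their breed. Its change was 0.54 (SE 0.19, adjusted p = 0.0426). The other called probes were A_72_P689751 (0.75, SE 0.25, adjusted p = 0.0381), A_72_P088441 (0.72, SE 0.24, adjusted p = 0.0361) and A_72_P684140 (0.68, SE 0.24, adjusted p = 0.0467).

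The remaining GPX1 probes had the same direction and were not called. The brightest, A_72_P623069, read 14.74, 15.71 and 16.58 on TN and 14.95, 16.25 and 17.02 on HS arrays, with a change of 0.43 (SE 0.16, adjusted p = 0.0589). A_72_P564112 gave 0.66 (SE 0.23, adjusted p = 0.0508). All 6 probes put the group means in 1 order, from F1 HS through Large White HS, Creole HS, F1 TN and Large White TN to Creole TN. No neighbours in that order differed by more than the larger SD. For A_72_P655960 the group means ran from 15.53 ± 0.32 (SD, n = 5) in F1 HS to 14.53 ± 0.48 (SD, n = 6) in Creole TN.

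The GPX1 calls lay close to the threshold and moved with single arrays. When each of the 35 arrays was left out in turn, GPX1 kept between 0 and 6 called probes, with 0 in 10 of the 35 fits, and every fit kept the direction of the 4 called probes. With the scanner's processed signals scaled to the 75th percentile, 0 of 6 GPX1 probes were called, and without a filter on dim probes 1 of 6.

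GPX3, the secreted plasma peroxidase, had 6 probes under its name, which fell into 2 patterns. The 5 probes other than O9216 gave 0.12 to 0.13, none of them called. The brightest, A_72_P666610, read 11.55, 12.19 and 13.00 on TN and 11.66, 12.37 and 13.05 on HS arrays, nearly the same range, with a change of 0.12 (SE 0.13, 95% interval -0.14 to 0.39, adjusted p = 0.559). O9216 read 7.23, 7.86 and 8.16 on TN and 6.70, 7.51 and 7.86 on HS arrays. Its HS arrays sat lower, with 14 of 17 below the TN mean of their breed, and it fell by 0.33 (SE 0.09, adjusted p = 0.0152). O9216 thus opposed the other probes under this name. It had 2 reading frames free of stop codons on each strand, and whether it reads the GPX3 transcript was not tested. A probe outside the rule with the same sequence as A_72_P036051 gave 0.14 (SE 0.12, adjusted p = 0.445), near the other 5.

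GPX4, the peroxidase that reduces lipid peroxides within membranes, had no called probe. Its 5 probes gave -0.04 to 0.01, and their 95% intervals ran together from -0.13 to 0.11. The brightest, A_72_P388853, read 14.00, 14.30 and 14.62 on TN and 14.01, 14.36 and 14.48 on HS arrays (adjusted p = 0.930). Both ranges nearly coincided. The other probe above 0 was A_72_P646221 (0.00, adjusted p = 0.955). Against the brightest probe's direction stood O12144 (-0.03, adjusted p = 0.670), A_72_P232212 (-0.02, adjusted p = 0.823) and A_72_P589411 (-0.04, adjusted p = 0.636). The brightest probe was also below 0 when arrays were scaled to their 75th percentile (-0.10) or their median (-0.02).

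Among the soluble transferases, GSTP1 had 1 probe, O8505, at 12.71, 13.16 and 13.55 on TN and 12.81, 13.20 and 13.80 on HS arrays. The arrays overlapped over most of the range, with a change of 0.07 (SE 0.08, 95% interval -0.10 to 0.24, adjusted p = 0.596). GSTO1, an omega-class transferase that also reduces dehydroascorbate, had 2 probes, both lower in HS. O9147 read 11.85, 12.17 and 12.46 on TN and 11.64, 11.92 and 12.22 on HS arrays. Its HS arrays were below the TN mean of their breed in 15 of 17 cases, and it fell by 0.21 (SE 0.05, adjusted p = 0.00891). The brightest probe, A_72_P165141, read 13.23, 13.63 and 14.02 on TN and 13.23, 13.54 and 13.80 on HS arrays, and was not called at -0.10 (SE 0.06, 95% interval -0.22 to 0.03, adjusted p = 0.283).

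The lower calls depended on the scaling. O9147 was not called when arrays were scaled to their median (-0.16, adjusted p = 0.0547). With spike-in scaling, chosen after the data were seen, O9216 gave -0.22 (adjusted p = 0.199) and O9147 -0.09 (adjusted p = 0.538), and neither was called. Both stayed called in 35 of 35 fits that left out 1 array.

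MGST1, a membrane-bound transferase with peroxidase activity, rose with 6 of its 8 probes, 1.33-fold to 1.39-fold. A_72_P672779 read 9.30, 10.06 and 10.66 on TN and 9.86, 10.42 and 11.53 on HS arrays. HS arrays were above the TN mean of their breed in 16 of 17 cases, although the arrays of both temperatures overlapped. Its change was 0.45 (SE 0.13, adjusted p = 0.0196). A_72_P035861 read 8.74, 9.66 and 10.40 on TN and 9.59, 10.13 and 11.08 on HS arrays, with 0.47 (SE 0.13, adjusted p = 0.0107).

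The other called MGST1 probes were A_72_P618926 (0.43, adjusted p = 0.0284), A_72_P558929 (0.44, adjusted p = 0.0232), A_72_P619727 (0.41, adjusted p = 0.0402) and A_72_P585081 (0.42, adjusted p = 0.0277). A_72_P691959 was not called at 0.35 (SE 0.18, adjusted p = 0.182). The custom probe CUST_488_PI427286967, the brightest under this name, read 15.86, 16.36 and 16.77 on TN and 15.90, 16.34 and 16.85 on HS arrays. Its ranges coincided and its change was 0.02 (SE 0.07, 95% interval -0.12 to 0.17, adjusted p = 0.874). The upper end of that interval lay below the estimates of the other 7 probes. Leaving out each array in turn, MGST1 kept 3 to 6 called probes. A probe outside the rule with the same sequence as A_72_P035861 gave 0.44 (SE 0.13, adjusted p = 0.0167).

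By group means, A_72_P035861 ran from Creole HS, Large White HS and F1 HS to Large White TN, F1 TN and Creole TN. F1 HS lay 0.31 above Large White TN, which was more than the larger SD of the pair and the only such gap among the 190 neighbouring pairs of all 38 probes.

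MGST3, another membrane-bound transferase of the same family, showed no called change with 5 probes at 0.02 to 0.04. A_72_P077971, the brightest, read 12.95, 13.19 and 13.37 on TN and 12.95, 13.23 and 13.64 on HS arrays. The ranges overlapped, and 1 Creole HS and 1 Large White HS array lay above every TN array, with a change of 0.02 (SE 0.06, 95% interval -0.10 to 0.14, adjusted p = 0.857). Over all 38 probes, 0 had TN and HS arrays that did not overlap.

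**Figure D2:**
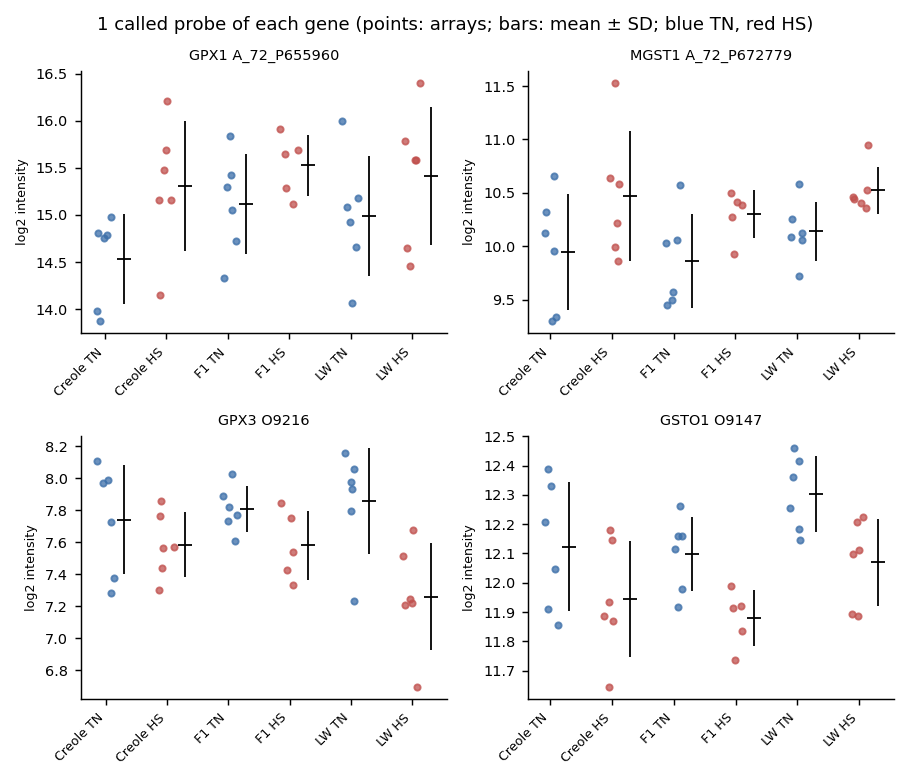
Log2 intensity on each array for 1 called probe of each gene, by breed and temperature, with mean ± SD beside the points (LW is Large White; blue TN, red HS; n = 6 per group and 5 for F1 HS). GPX1 A_72_P655960 and MGST1 A_72_P672779 have higher HS means in all 3 breeds, GPX3 O9216 and GSTO1 O9147 lower ones, and the points of both temperatures overlap in each panel.

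**Figure D3:**
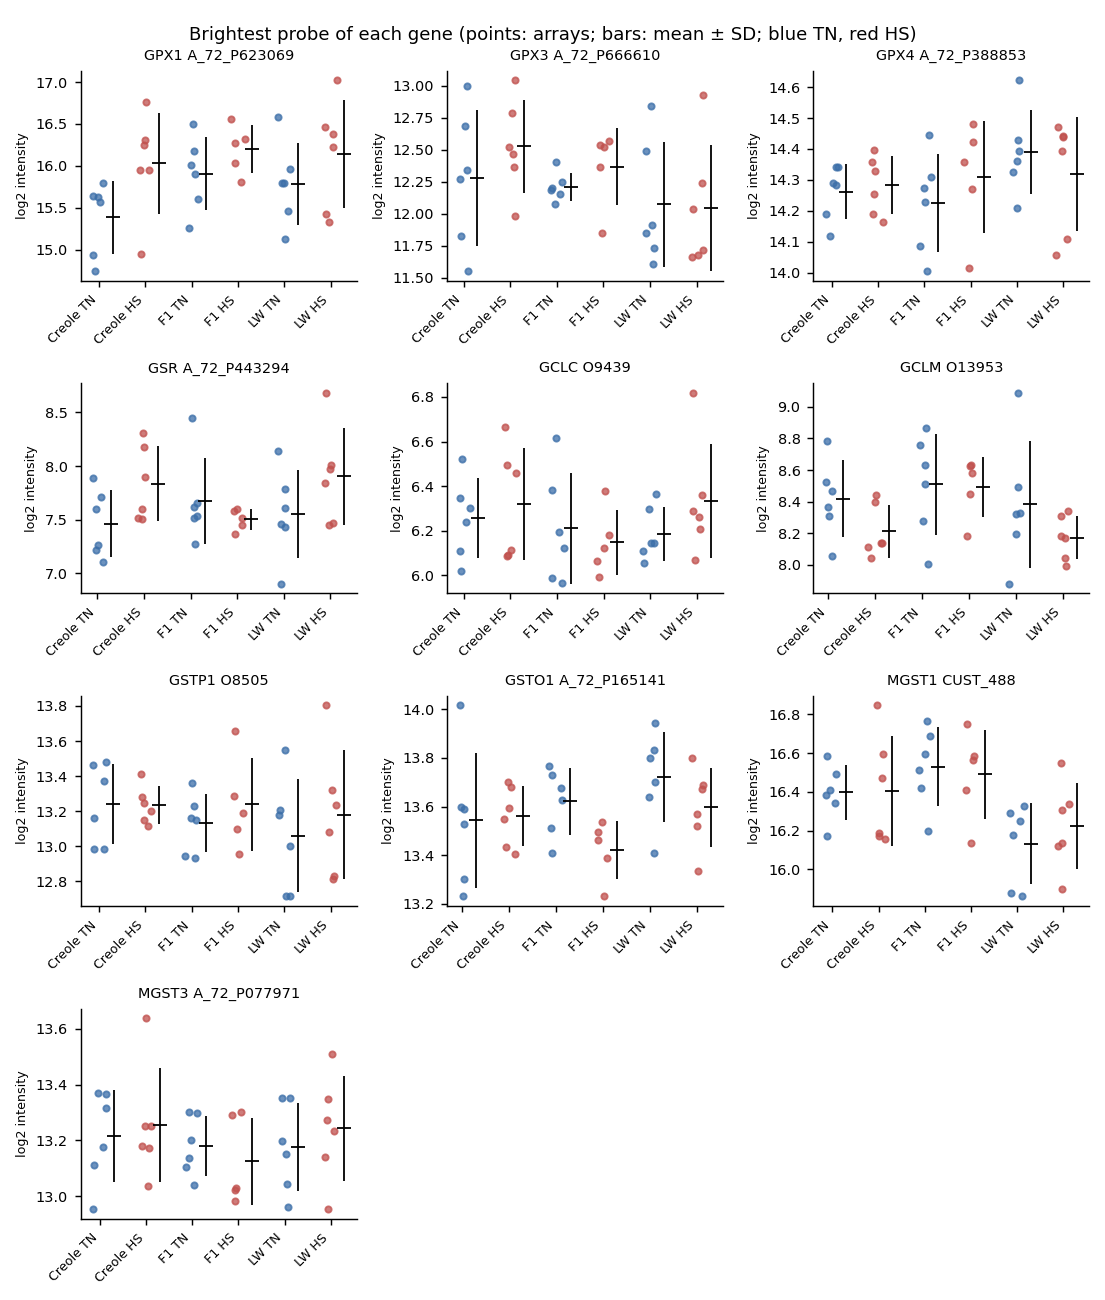
Log2 intensity on each array for the brightest probe of each of the 10 genes, by breed and temperature, with mean ± SD (CUST_488 stands for CUST_488_PI427286967; LW is Large White). None of these probes was called between HS and TN, and each panel has its own scale, so levels are not comparable between panels.

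The arrays were spread over 5 slides, and 4 of them held 4 TN and 4 HS arrays. The fifth held 2 Large White TN arrays and 1 Creole HS array. Slide 2 stood apart. After removing the breed effect, on it the 6 GPX1 probes were 0.19 to 0.40 lower in HS, whereas they were higher on the other slides. The called MGST1 probes were likewise lower on slide 2, by 0.06 to 0.14, except A_72_P035861, which was higher on 5 of 5 slides (0.16 to 0.67). O9216 and O9147 were lower on 5 of 5 slides. With slide as a block 14 probes were called, including all 6 of GPX1.

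**Figure D4:**
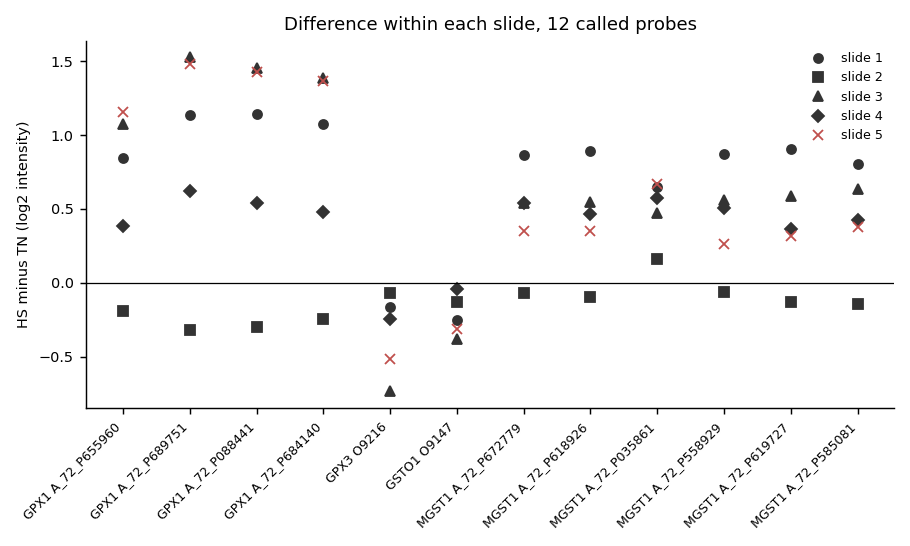
HS minus TN within each slide, as a difference of mean log2 intensities after removing the breed effect of the additive model, for the 12 called probes (slides 1 to 4 have 4 TN and 4 HS arrays, slide 5 has 2 and 1). The squares of slide 2 lie below 0 for the GPX1 probes and for 5 of 6 MGST1 probes, and the GPX3 and GSTO1 probes lie below 0 on every slide.

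Markers of some other cell types moved with temperature in the same tissue. Each gene was read by its brightest kept probe, and 18.3% were called over all genes with a symbol. Called shares were 36.4% for leukocyte, 41.7% for connective tissue, 44.4% for muscle fibre and 50% for red blood cell markers. They were 16.7% for endothelial and 0% for adipocyte markers. Of 14 leukocyte markers 11 were kept and 4 were called, all higher in HS: LAPTM5 (1.26), FCER1G (0.99), TYROBP (0.98) and CSF1R (0.93). Of the 11, 10 were above 0. The median change of the list was 0.70, and its mean level ran from 7.80 to 10.27 on TN (median 9.12) and from 9.03 to 10.65 on HS arrays (median 9.75). PTPRC, carried by all leukocytes, gave -0.02 (adjusted p = 0.906). Of 12 connective tissue markers 5 were called, all higher (median 0.35). Other kept probes called the same way were 1 of 1 for COL3A1, 5 of 9 for COL6A3 and 2 of 3 for FN1. They were 4 of 10 for LUM and 0 of 7 for SPARC. The muscle fibre markers averaged 17.79 to 18.06 on TN and 17.45 to 17.91 on HS arrays. Of the 9 kept, DES was called higher, and MYH2, TNNI2 and TTN lower. Of their other kept probes, 2 of 2 for TNNI2 were called the same way, but 0 of 3 for DES, 0 of 5 for MYH2 and 0 of 1 for TTN. Of 4 kept red blood cell markers HBB (-1.21) and AHSP (-0.44) were called lower. ALAS2 (-0.23, adjusted p = 0.103) and SLC4A1 (0.37, adjusted p = 0.123) were not called, and SLC4A1 went the other way. The adipocyte list had 0 of 8 called in limma and 2 with an unadjusted p below 0.05. The endothelial list had 1 of 6 called, VWF (-0.36), whose other kept probe was not called the same way. In whole muscle, fewer cells of a type and less RNA per cell cannot be told apart.

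With the mean of the leukocyte markers as a covariate, 0 of 38 member probes were called, beside 6.11% of all probes. The 4 GPX1 probes called before then gave 0.10 to 0.17 and the 6 MGST1 probes 0.06 to 0.19. O9216 and O9147 gave -0.20 each. With the brightness of the array as a covariate, 0 of 38 were called beside 5.04% of all probes, at 0.34 to 0.51 for GPX1 and 0.20 to 0.39 for MGST1. The part that the marker levels and the array brightness have in the result was not tested.

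**Figure D5:**
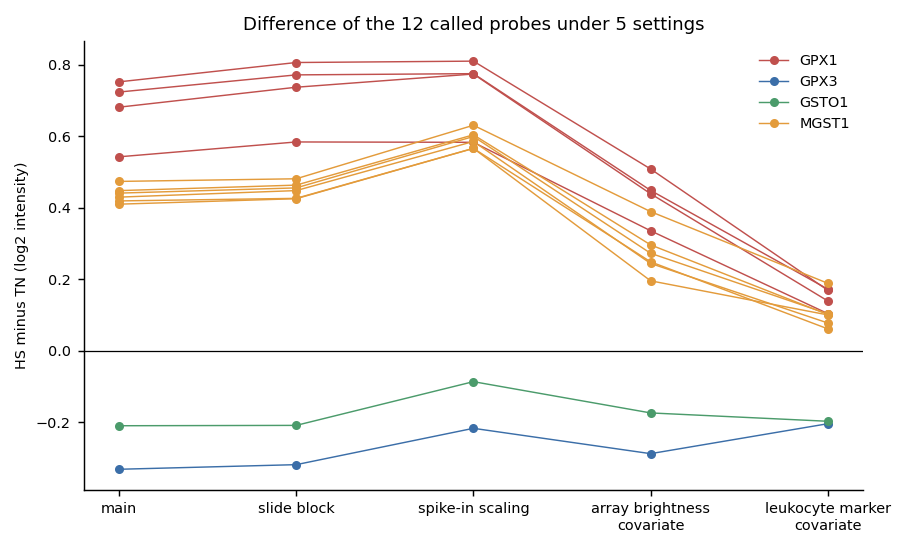
HS minus TN in log2 intensity for the 12 called probes, each line 1 probe, as reported (main) and under 4 other settings: slide as a block, scaling to spike-in controls, array brightness as a covariate and the mean of leukocyte markers as a covariate. The called GPX1 probes lie between 0.54 and 0.75 as reported and between 0.10 and 0.17 with the leukocyte covariate, and GSTO1 and GPX3 lie below 0 under all 5.

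Within breeds, no member probe was called between HS and TN. Within Creole, 0 of 38 were called in limma, beside 1.91% of all probes, and 11 had an unadjusted p below 0.05, which is 28.9% beside 21.5% of all probes. They were the 6 GPX1 probes (0.65 to 1.05) and 5 MGST1 probes (0.49 to 0.68), with the smallest adjusted p at A_72_P035861 (0.0800). Within F1, 0 of 38 were called, beside 0.00482% of all probes, and O9147 alone had an unadjusted p below 0.05 (-0.22), as did 8.30% of all probes. Within Large White, 0 of 38 were called, again beside 0.00482%, and 3 had an unadjusted p below 0.05, as did 16.6% of all probes: O9216 (-0.60, adjusted p = 0.0799), O9147 (-0.23) and GSR O12078 (0.37).

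The estimates of the breeds were tested against each other by the interaction of breed and temperature. In limma 0 of 38 member probes were called, beside 0% of all probes, and 0 member probes had an unadjusted p below 0.05, beside 3.84% of all. The smallest was 0.114, at O9216, which gave -0.16 in Creole, -0.23 in F1 and -0.60 in Large White. GPX1 A_72_P655960 gave 0.78 in Creole, 0.41 in F1 and 0.43 in Large White (interaction adjusted p = 0.968).

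Between breeds, no member probe was called either. Creole against Large White gave 0 of 38 calls in limma, beside 3.64% of all probes, with 7 at an unadjusted p below 0.05. These were 18.4% of the members, close to the 15.4% of all probes at that level. Of the 7, 5 were the GPX3 probes other than O9216, at 0.34 to 0.42 higher in Creole (adjusted p = 0.144 to 0.277). For A_72_P666610 the Creole arrays read 11.55, 12.42 and 13.05 and the Large White arrays 11.61, 11.88 and 12.93, so they overlapped widely. The others were CUST_488_PI427286967 (0.22, adjusted p = 0.172) and O9147 (-0.15, adjusted p = 0.234). GPX1 probes gave -0.26 to -0.38 with 95% intervals from -0.98 to 0.27.

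F1 against Large White gave 0 of 38 calls, beside 0.525% of all probes, with 3 at an unadjusted p below 0.05 (7.89%, beside 10.5% of all). CUST_488_PI427286967 gave 0.34 (SE 0.09, adjusted p = 0.0784), from 15.86, 16.21 and 16.55 in Large White and 16.14, 16.57 and 16.77 in F1. The other MGST1 probes had no unadjusted p below 0.05 in this contrast. GCLM O13953 gave 0.22 and O9147 -0.20. F1 against Creole gave 0 of 38, beside 0.477%, with 0 at an unadjusted p below 0.05, beside 8.88% of all. F1 against the midpoint of its parental breeds gave 0 of 38, beside 0.246%, with the same 3 probes at an unadjusted p below 0.05, beside 7.35% of all, and a smallest adjusted p of 0.380.

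Other genes of the pathway were read from lists, each gene by its brightest kept probe. Of 38 further glutathione genes 24 were kept, and 7 were called, 3 higher and 4 lower (29.2%, median change 0.03), beside 18.3% and a median of -0.03 over the brightest probes of all genes with a symbol. ADH5, which reduces S-nitrosoglutathione, rose by 0.22 (adjusted p = 0.00231), and GGT1, which splits extracellular glutathione, by 0.43 (adjusted p = 0.00908) with a dim probe that was well above background on 23 of 35 arrays. Under the name GPX2, the intestinal peroxidase, probe O12013 rose by 0.54 (adjusted p = 0.0464), but the other kept probe of that name had the opposite sign. The glyoxalases GLO1 (-0.23, adjusted p = 0.0266) and HAGH (-0.29, adjusted p = 0.0325) fell, as did GSTZ1 (-0.26, adjusted p = 0.0197), a transferase of tyrosine breakdown. SLC3A2, a subunit of the cystine transporter and other amino acid carriers, fell the most (-0.72, adjusted p = 0.000941), with 0 of 17 HS arrays above the TN mean of their breed.

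Of 13 genes of NADPH supply and the NRF2 response, 11 were kept and 1 was called (9.09%, beside 18.3%), NQO1, a quinone reductase (-0.41, adjusted p = 0.0428). Their median change was -0.04. NFE2L2, which encodes NRF2 itself, gave -0.04 (adjusted p = 0.747) and HMOX1 -0.14 (adjusted p = 0.792). GPX1, GPX3 and GPX4 are selenoproteins, and 6 of 8 genes of selenocysteine use were kept, of which 2 were called (33.3%, beside 18.3%). SELENOP, a plasma carrier of selenium, rose by 0.46 (adjusted p = 0.000537) in 17 of 17 HS arrays against the TN mean of their breed, with 9 of 9 other probes called the same way. PSTK, a kinase of selenocysteine synthesis, fell by 0.16 (adjusted p = 0.0387).

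The genes whose levels followed each member most closely over the 35 arrays, after removing group means, were listed by Pearson r. GPX1 was closest to GPX2 O12013 (r = 0.957), then PGA5 (0.792) and CTSD (0.788), a lysosomal protease. O12013 shared no run of 16 bases with a GPX1 probe. Only probe sequences were compared, so whether it reads another part of the GPX1 transcript was not tested. GSR was closest to PDIA3 (0.921), SEC61B (0.921) and MCM6 (0.920), and GSTP1 to PNPLA6 (0.836), KHK (0.811) and SBNO1 (0.792). GPX3 was closest to SUMO2 (0.785), CAMK1 (0.724) and DBF4 (0.719), and GPX4 to NUBP2 (0.779), ATOX1 (0.770) and SYAP1 (0.766).

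GCLC was closest to PRPS1 (0.774), ACTR5 (0.774) and MPP1 (0.769), and GCLM to GNA11 (0.735), MAN1A2 (0.733) and DSTYK (0.729). GSTO1 was closest to KLF7 (0.730), CDC42 (0.688) and ALG12 (0.679), and MGST3 to GTF2H2 (0.681), TBC1D19 (0.665) and FRG1 (0.662). CUST_488_PI427286967 was closest to EPS15L1 (0.794), INPP5K (0.757) and CHD2 (0.679). These values describe 35 arrays that share slides and a normalisation, and carry no test.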

How the data were processed

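Cy3-labelled muscle RNA of 35 pigs was hybridised to 1-colour Agilent porcine arrays, 1 pig each. The scanner files deposited by the authors, made with Feature Extraction 10.10.1.1, give each spot's intensity, linear and not normalised. The deposited value table, 40649 expressed probes on a log2 scale and quantile-normalised by the authors, served as an alternative.

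Here log2 of the median spot intensity was taken after quantile normalisation, with no background subtracted and controls left out. Spots with an outlier flag (105, 0 of them in a member) were set to missing. A probe was kept if it was well above background in at least 75% of any group, which left 41517 of 60305. Symbols of other genes came from RefSeq accessions (Sscrofa11.1, names only), or else from known gene names in the scanner files. A symbol was found for 22746 probes.

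Additive effects of temperature and breed, and in a model with 1 mean per group the contrasts within breeds and the interaction, were tested with limma 3.58.1 in R 4.3.3, Benjamini-Hochberg adjusted over all kept probes at 0.05. Random effects of pen, slaughter day and parents, used in the study, need records that the labels lack. Without them, p-values may be too small where pigs share a pen or slaughter day. Shared litters may make those between breeds too small and those of HS minus TN too large. On the authors' value table the model used here called 6651 probes (16.4%), more than the study reports for muscle with those terms. The source of that gap was not tested. P-values weigh a difference against the spread between these arrays, whose number limits the precision. The fits were run on simulated data with known changes, drawn independently for each array and probe, to check the estimates. Shared litters, pens, slaughter days or slides were not simulated, so this does not test the p-values.

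All 10 genes were named: the brightest kept probe in full, other probes by count and range, with values for every called probe and every probe opposing the brightest, then every list gene called between HS and TN and the 3 genes with a symbol nearest each member. Marker genes and uncalled list genes were named after their values were seen. Members and lists were chosen with earlier results of these data known. Alternatives were other scalings, background corrections and filters, slide as a block, array weights, the deposited values, 2 covariates, no breed term, 1 temperature at a time, the mean of a gene's probes and leaving out each array.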

Additional observations from a re-analysis of the deposited data

Results flagged for a closer look

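In 16 of 228 combinations of a member probe and a group (7.02%), the highest or lowest array lay far from the other arrays of its group. Chance gives such a gap in about 1 of 20 groups, and probes of a gene share sequence. MGST3 held 6 of them. On Creole HS array 1 its probes read 13.64 (A_72_P077971), 13.07 (A_72_P444918), 12.88 (A_72_P501040) and 12.93 (O13326), each above the other Creole HS arrays, whose highest were 13.25, 12.72, 12.59 and 12.57. On Large White HS array 3, A_72_P501040 read 12.84 and O13326 12.76, against 12.55 and 12.50 on the next array.

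Large White HS array 5 was highest of its group for 4 probes: GPX3 A_72_P036051 (10.64, next 9.93) and A_72_P671275 (10.08, next 9.27), and MGST1 A_72_P672779 (10.95, next 10.52) and A_72_P618926 (10.79, next 10.39). F1 TN array 2 was highest for GSR A_72_P443294 (8.45, next 7.66) and MGST1 A_72_P035861 (10.40, next 9.71). Large White TN array 1 was highest for the near-identical GPX4 probes O12144 (13.38, next 13.11) and A_72_P589411 (13.26, next 12.95). GPX4 A_72_P646221 was highest on F1 TN array 3 (13.22, next 13.05), and GPX3 A_72_P666610 lowest on F1 HS array 5 (11.85, next 12.36).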

How the results depend on the processing

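Of 588 recomputed values of results called as reported, 0 turned sign. The 12 member calls between HS and TN were 9 with processed signals, 8 without a filter on dim probes and 14 with slide as a block or with array weights. They were 0 with array brightness or leukocyte markers as a covariate, where the other pathway genes called, 10 as reported, were 3 and 5. Spike-in scaling, chosen after seeing the data, gave 11 member calls and 6 pathway genes. By brightest probe, 0 genes became 1 with processed signals (GSTO1), slide as a block or array weights (GPX1 in both), and 2 by the mean of probes. Creole against Large White, 0 as reported, gave 2 calls with array weights and 3 with the leukocyte covariate, all in GPX3. F1 against Large White gave 1 with either (CUST_488_PI427286967), and within Large White array weights gave 1 (O9216).

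Leaving out each array in turn gave 5 to 15 member calls between HS and TN. There were 5 without Creole TN array 1, and 7 without Creole HS 1 or 6, Large White TN 3 or 5, F1 TN 4 or 5, or Large White HS 5. The range was 0 to 1 genes by brightest probe, and 6 to 12 pathway genes, with 6 without Creole TN 1 or Large White TN 5. It was 0 to 3 for Creole against Large White (3 without Large White TN 6), 0 to 1 for F1 against Large White, 0 to 2 within Creole and 0 to 1 within Large White.

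Signs turned only in uncalled values. Between HS and TN these were GPX4 A_72_P388853 (-0.10 with 75th percentile scaling, -0.024 with median scaling, -0.069 with processed signals, -0.035 with the leukocyte covariate), CUST_488_PI427286967 (-0.084, -0.010 and -0.079 with the same scalings), and MGST3 A_72_P077971 (-0.041 with 75th percentile scaling, -0.065 with processed signals, -0.020 with array weights). They were also GCLC O9439 (-0.032 with 75th percentile scaling, -0.022 with brightness, -0.055 with leukocytes), GSR A_72_P443294 (-0.00015 with brightness, -0.11 with leukocytes), GSTP1 O8505 (-0.0036 with processed signals) and GPX3 A_72_P666610 (-0.053 with leukocytes). Leaving out arrays, GPX4 A_72_P388853 ranged from -0.0063 to 0.028, CUST_488_PI427286967 from -0.0063 to 0.049 and MGST3 A_72_P077971 from -0.0061 to 0.036.

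Creole minus Large White turned for MGST3 A_72_P077971 (-0.033 with median scaling, -0.0035 with processed signals, -0.061 with spike-ins), MGST1 A_72_P035861 (0.0034 with slide as a block, 0.086 with leukocytes, 0.12 on HS arrays), GCLM O13953 (-0.020 with spike-ins), GPX3 O9216 (-0.12 on TN arrays) and GCLC O9439 (-0.016 on HS arrays). With leukocytes it turned for GSR A_72_P443294 (0.030) and MGST1 A_72_P672779 (0.0053), A_72_P618926 (0.025) and A_72_P619727 (0.025). Leaving out arrays, it ranged from -0.15 to 0.00071 for GSR A_72_P443294, -0.0058 to 0.077 for GCLC O9439, -0.0079 to 0.11 for GCLM O13953, -0.11 to 0.066 for MGST1 A_72_P035861 and -0.012 to 0.052 for MGST3 A_72_P077971. The cause of these moves was not tested.

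No paired analysis was possible because the replicate numbers follow the order of deposition and the labels name no litter or pen. Dim signal limits GSR O12078, GCLC A_72_P108316 and the GGT1 probe, which were not well above background on every array. A single animal of a group of 6 can decide a call near the threshold, as with GPX1, and levels were not compared between probes.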
